A study of Mus musculus with 12 samples.

Results

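The expression of 40 genes that mark or regulate the vascular endothelium, the cell layer that lines blood vessels, was followed in lung RNA from mice given saline, a bacterial product, a tobacco carcinogen or both. The 40 genes were taken from a list of endothelial surface proteins, receptors, ligands and transcription factors, chosen with earlier results of these data known. They were matched to array probes through RefSeq transcripts, a step that uses no measured value. The brightest probe that passed a filter on dim probes then stood for each gene. All 40 had at least 1 probe among the 17009 genes that could be named on the array, and 39 passed the filter on dim probes, out of 21856 genes and unnamed transcripts tested. Prox1, the transcription factor of lymphatic endothelium, was the one left out: of its 2 probes, 1 was above background on 0 arrays and the other on 4 of 12.

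The lung holds a dense capillary network whose endothelium exchanges gas, and its arteries and veins are lined by endothelium of different identity. Arterial endothelium is known for Notch signalling, in which the ligand Dll4 on one cell activates receptors such as Notch4 on its neighbour, and for the gap junction proteins made from Gja4 and Gja5. Venular endothelium is the usual site where leukocytes leave the blood, and for this it displays selectins, Vcam1 and the chemokine-binding receptor Ackr1.

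The mice were female and of the FVB strain (labelled FVB/NJ, and FVB/N in the protocol), were 7 weeks old at the start, and carried no stated transgene. The PBS group (n = 3) received phosphate-buffered saline weekly for 16 weeks. The LPS group (n = 3) received lipopolysaccharide, a component of the bacterial outer membrane that provokes inflammation, into the nose at 5 micrograms per mouse weekly for 16 weeks. The NNK group (n = 3) received the nicotine-derived nitrosamine NNK, a tobacco carcinogen, into the peritoneum at 3 mg per mouse during 4 weeks; its schedule is called biweekly in one label and semi-weekly in another. The LPS/NNK group (n = 3) received both. Lungs were taken 1 week after the last treatment, and whether the NNK mice were as old at death as the others is not given in the sources used here. Each sample is 1 array of whole lung RNA, and the p-values measure the spread between these samples.

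Levels below are log2 of the background-subtracted signal minus the 75th percentile of the same array, so that 0 is the 75th percentile, and a difference of 1 is a doubling. Probes differ in brightness, so levels were compared between arrays and not between genes. A gene is called where limma's adjusted p is under 0.05. The 3 PBS arrays stood apart from the 9 treated arrays in overall signal: 70.2% to 73.1% of spots were well above background on PBS arrays and 55.6% to 67.5% on treated arrays. Correlations between arrays were 0.978 to 0.984 within PBS and 0.878 to 0.933 between PBS and treated arrays. On 2 of the 3 PBS arrays (1 and 2) Y-linked genes were well above background and Xist was not, against the female label, and PBS array 2 was scanned on another day than the other 11. Comparisons of treated groups with each other contain no PBS values, although the PBS arrays entered the pooled variance and the filter on dim probes, and are given first; comparisons with PBS are given with and without arrays 1 and 2.

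Endothelial transcripts were measured in every group: 36 of the 40 genes were well above background on all 12. The exceptions beside Prox1 were Bmx and Sele, which were above background on the 3 PBS arrays and on none of the treated arrays, and Erg, which was not above background on LPS array 5. A set of 13 genes was called in no comparison under the main scaling: Pecam1, Cldn5, Esam, Emcn, Icam2 and Car4 among junction and surface proteins, the VEGF receptors Kdr and Flt1, the Notch target Hey1, the adrenomedullin co-receptor Ramp2 and the transcription factors Fli1, Sox7 and Sox18. Pecam1, the adhesion molecule CD31 of endothelial junctions, measured 2.82 ± 0.27 (SD, n = 3) in PBS, 2.55 ± 0.48 in LPS, 2.69 ± 0.24 in NNK and 3.04 ± 0.52 in LPS/NNK. Kdr, the main VEGF receptor, measured 3.57 ± 0.54, 3.16 ± 0.42, 3.76 ± 0.14 and 3.17 ± 0.19 in the same order. Both sets of levels overlapped between PBS and each treated group. The scaling matters here: 9 of the 13 (Kdr, Flt1, Cldn5, Esam, Emcn, Car4, Icam2, Ramp2 and Hey1) were called lower than PBS in at least 1 treated group under both quantile and cyclic loess normalization, for example Cldn5 in LPS (-1.22 and -1.32). Pecam1 and Sox7 were called under none of the alternatives. How many of all items were called lower under quantile and cyclic loess normalization is not given here. In whole lung RNA, fewer cells of a type and less RNA per cell cannot be told apart.

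Among treated groups, the comparison with the most called endothelial genes was LPS/NNK against NNK, groups that differ by weekly LPS. The groups also differ in array position, and whether they were of the same age at death is not given. Whether the NNK mice received saline into the nose is not given either, so LPS and nasal dosing cannot be told apart here. Of the 39 genes, 7 were lower and 2 higher in LPS/NNK, or 23.1% in all, where 17.3% of all items tested were called in this comparison (9.35% lower and 7.92% higher). The median change was -0.25 over the 39 genes and -0.06 over all items. The genes that fell were Gja5, Dll4, Nos3, Flt4, Notch4, Aplnr and Ednrb, and those that rose were Vcam1 and Lyl1. For 13 of the 39 genes every NNK array lay on one side of every LPS/NNK array, as it did for 35.9% of all items.

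Of the 6 Notch and arterial genes 3 fell, Gja5, Dll4 and Notch4, and none rose. Gja5, which encodes connexin 40, a gap junction protein of arterial endothelium and atrial muscle, measured 3.92, 4.11 and 3.44 on NNK arrays 2, 3 and 5 and 1.79, 1.33 and 1.16 on LPS/NNK arrays 2, 3 and 6. All 3 LPS/NNK arrays lay below all NNK arrays, and also below the lowest PBS (2.53) and LPS (2.22) arrays. The fall was 2.40 on the log2 scale (log2 change -2.40, SE 0.35, limma adjusted p = 0.000936), a 5.26-fold difference. A dimmer second Gja5 probe differed by -0.66 in the same comparison, so the 2 probes disagree on the size.

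Dll4, the Notch ligand of arterial and sprouting endothelium, measured 2.29, 1.98 and 1.79 in NNK and 1.03, -0.19 and -0.17 in LPS/NNK. The groups did not overlap, with LPS/NNK array 2 nearest to the NNK arrays (log2 change -1.80, SE 0.32, adjusted p = 0.00284). Notch4, an endothelial Notch receptor, measured 4.57, 4.55 and 3.85 in NNK and 3.34, 2.96 and 3.19 in LPS/NNK. It fell by 1.16 on the log2 scale with no overlap (adjusted p = 0.0205). The other arterial genes did not pass: Gja4 differed by 0.40 and Hey1 by -0.40, and Bmx was not above background in either group.

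Dll4 and Notch4 had their highest group mean in NNK, and their LPS/NNK levels did not pass the test against PBS. Against PBS, Dll4 was 1.34 higher in NNK (adjusted p = 0.00399) and differed by -0.46 in LPS/NNK (adjusted p = 0.233). Notch4 was 1.03 higher in NNK (adjusted p = 0.0131) and differed by -0.14 in LPS/NNK (adjusted p = 0.716). On its brighter probe Gja5 was also 1.41 lower in LPS/NNK than in PBS (log2 change -1.41, limma adjusted p = 0.00415). Its second probe differed by only -0.18.

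Of 9 further Notch pathway genes, 2 fell from NNK to LPS/NNK and none rose: the ligand Jag1 (-1.45) and the target Hes1 (-1.15). Of all items, 9.35% were called lower and 7.92% higher. Among 9 genes of BMP and ALK1 signalling, the pathway whose endothelial receptor is Acvrl1, 3 fell and 0 rose: Acvrl1 (-1.30), the ligand Bmp6 (-1.70) and the inhibitor Smad6 (-1.40). Among 28 other endothelial genes 8 fell and 1 rose, with a median of -0.64. Tmem204 fell by 1.86 and Adgrf5, an adhesion receptor of alveolar capillary and epithelial cells, by 1.29, and Procr, the protein C receptor, was the one that rose (1.49).

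**Figure D1:**
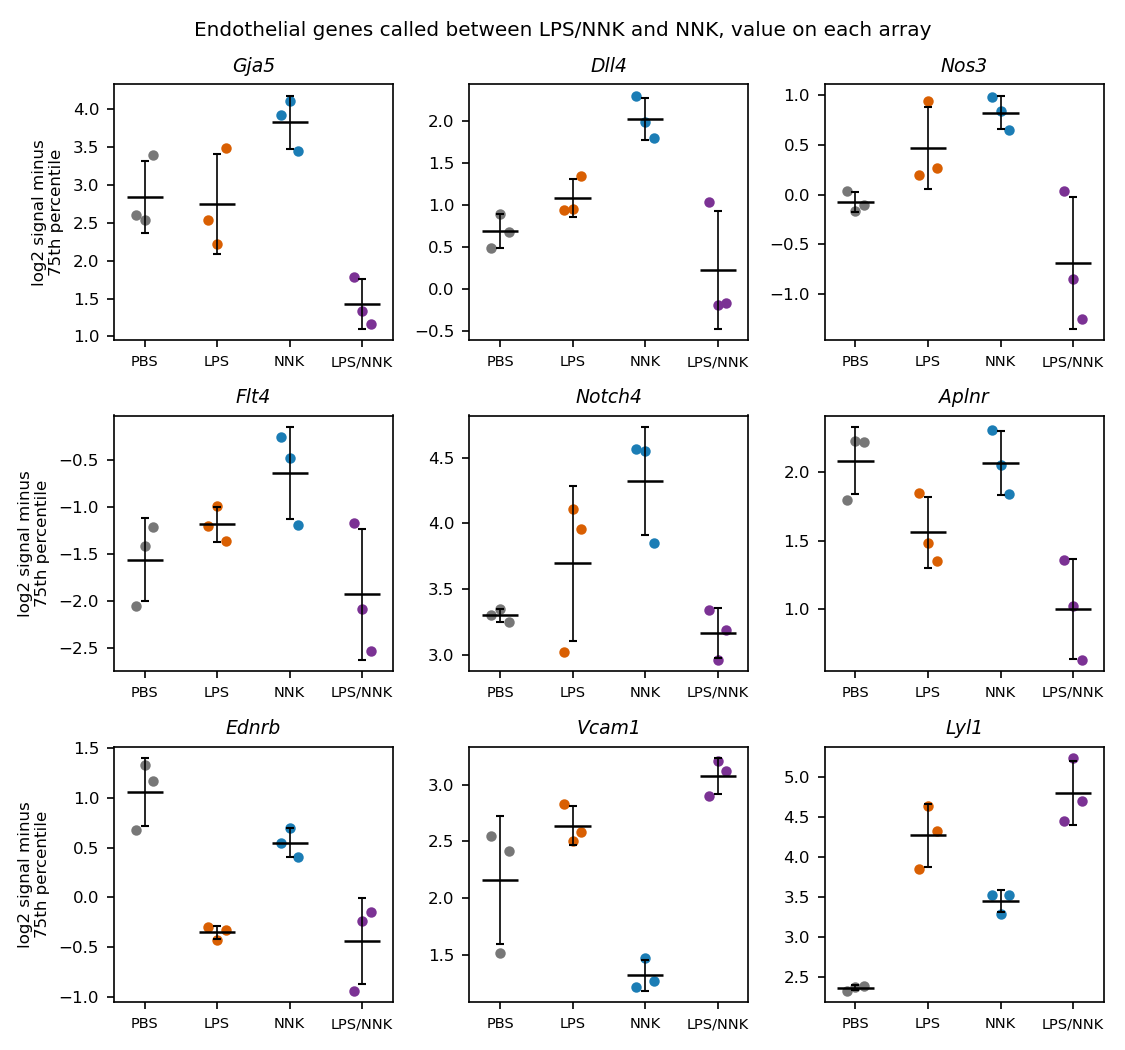
Level of the 9 endothelial genes called between LPS/NNK and NNK (y axis, log2 signal minus the array's 75th percentile) on each array of the 4 groups; bars are means and SDs of 3 arrays. Gja5 on LPS/NNK arrays lies between 1.16 and 1.79, below the NNK arrays at 3.44 to 4.11, and Vcam1 lies between 2.9 and 3.21, above the NNK arrays at 1.21 to 1.47.

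Of the 8 vasoactive and secreted factors and their receptors 3 fell and none rose. Nos3, the endothelial nitric oxide synthase, measured 0.98, 0.84 and 0.65 in NNK and 0.04, -0.85 and -1.25 in LPS/NNK. All LPS/NNK arrays were below all NNK arrays (log2 change -1.51, SE 0.32, adjusted p = 0.00706). Aplnr, the apelin receptor, measured 2.31, 2.05 and 1.84 in NNK and 1.36, 1.02 and 0.63 in LPS/NNK, a fall of 1.06 without overlap (adjusted p = 0.0155). Ednrb, the type B endothelin receptor of alveolar capillary endothelium, measured 0.55, 0.70 and 0.40 in NNK and -0.94, -0.24 and -0.15 in LPS/NNK, a fall of 0.99 without overlap (adjusted p = 0.022). Second probes of Aplnr (-0.91) and Ednrb (-0.84) differed in the same direction. Of the others of this group, Vwf (-0.88), Apln (-0.85), Calcrl (-0.83), Egfl7 (0.47) and Ramp2 (-0.01) did not pass.

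Flt4, the VEGF-C receptor of lymphatic and some blood endothelium, was the only called gene whose arrays met: NNK measured -0.26, -0.48 and -1.19 and LPS/NNK -1.17, -2.08 and -2.53. NNK array 5 was just below LPS/NNK array 2 (log2 change -1.29, adjusted p = 0.0273). Tek, the angiopoietin receptor, differed by -0.99 with no overlap but did not pass (adjusted p = 0.0572). The 8 junction and surface genes all missed the threshold, with changes from -0.60 (Esam) to 0.35 (Pecam1) on the probes used, and a second Cdh5 probe differed by -1.48. Esam was called under quantile and cyclic loess normalization (-0.70 in each).

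Vcam1, the adhesion molecule that binds the leukocyte integrin made with Itga4, rose. It measured 1.21, 1.47 and 1.27 in NNK and 2.9, 3.21 and 3.12 in LPS/NNK, with a wide gap between the groups (log2 change 1.76, SE 0.27, adjusted p = 0.00139). Its dimmer second probe differed by 0.87. LPS alone was also above NNK: 2.83, 2.50 and 2.58 on the 3 LPS arrays (log2 change 1.32, adjusted p = 0.012). Against PBS, NNK was 0.84 lower (log2 change -0.84, adjusted p = 0.0214), and LPS differed by 0.48 (adjusted p = 0.153) on this probe and by -1.16 on the other.

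Lyl1, a basic helix-loop-helix transcription factor of endothelium and blood cells, measured 3.53, 3.29 and 3.53 in NNK and 4.45, 5.23 and 4.70 in LPS/NNK. It rose without overlap (log2 change 1.34, SE 0.26, adjusted p = 0.00499). The other 5 transcription factors measured did not pass, with changes from -0.21 (Sox7) to 0.70 (Sox17).

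Lyl1 is also expressed in blood cells, and leukocyte genes moved in the same comparison. Of 12 leukocyte markers 6 rose from NNK to LPS/NNK and none fell, beside 7.92% of all items called higher. Their mean level was 0.40 to 0.46 on NNK arrays and 1.26 to 1.58 on LPS/NNK arrays. Adgre1, the macrophage marker F4/80, rose by 2.40, and Cd3g, of T cells, by 2.80. Among 8 partners of leukocyte adhesion 3 rose, namely the selectin ligands Glycam1 (2.95) and Selplg (1.53) and the integrin subunit Itga4 (1.18). The part of leukocytes in the Vcam1 and Lyl1 differences was not tested.

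Markers of other cells also fell, in a comparison that called 9.35% of all items lower. Of 9 platelet and megakaryocyte genes 6 fell from NNK to LPS/NNK, with array means of 0.54 to 1.15 in NNK and -1.17 to -0.40 in LPS/NNK. Of 8 heart muscle genes 4 fell, with array means of 2.42 to 3.79 in NNK and 1.48 to 2.78 in LPS/NNK. Myl4, an atrial myosin light chain, fell by 2.04, and Ryr2 by 1.47. Of 12 mural cell genes 2 fell (Des, -1.61, and Cspg4, -1.31), or 16.7%, near the 17.3% of all items called in either direction. Of 4 erythroid genes 2 fell. Myl4 measured 5.06, 4.54 and 3.68 in NNK and 2.52, 3.00 and 1.61 in LPS/NNK, without overlap, and the levels of the other 3 heart muscle genes that fell did not overlap either. The part of these cells in the falls of the endothelial genes was not tested.

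**Figure D2:**
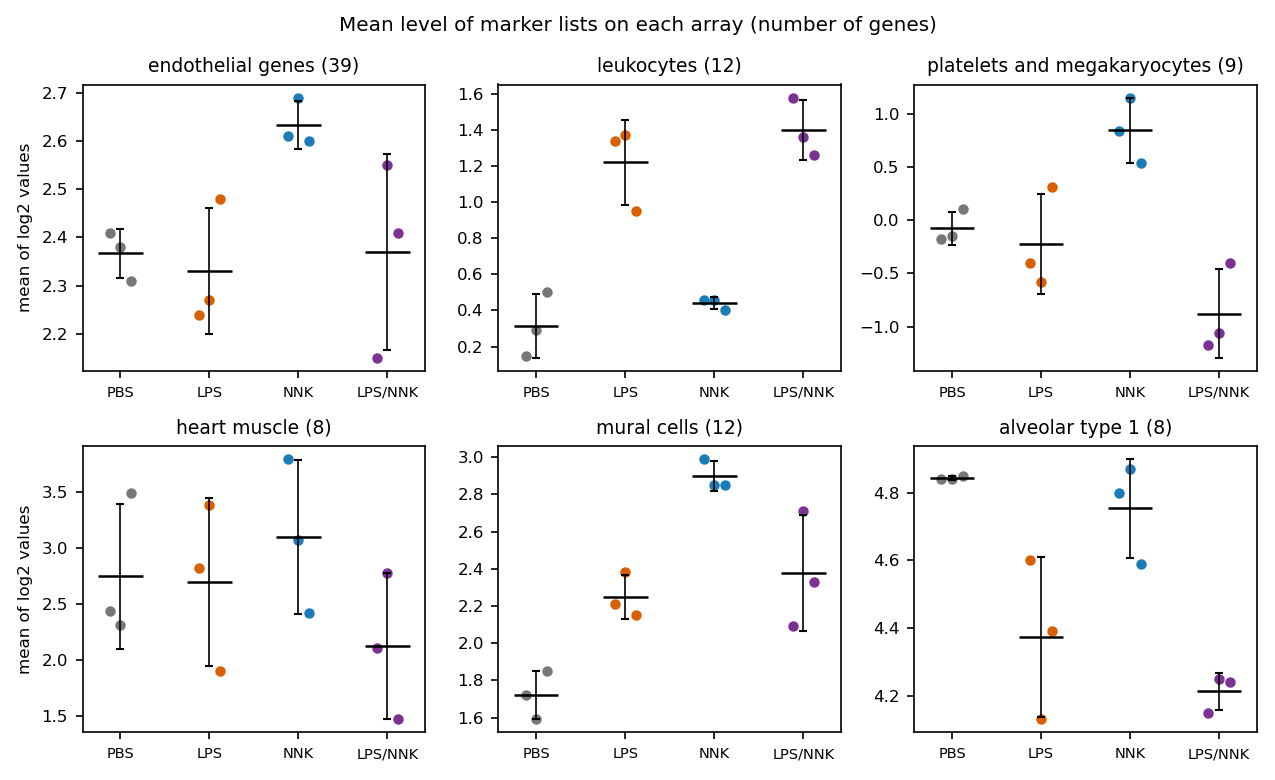
Mean of log2 levels over the 39 endothelial genes and over 5 lists of markers of other cells (y axes; number of genes in each title) on each array of the 4 groups, with bars for the mean and SD of 3 arrays. Leukocyte means are 0.15 to 0.50 in PBS, 0.40 to 0.46 in NNK, 0.95 to 1.37 in LPS and 1.26 to 1.58 in LPS/NNK, and platelet means are highest in NNK.

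NNK array 3 and LPS/NNK array 2 shared slide 6, and NNK array 5 and LPS/NNK array 3 shared slide 7. Within slides 6 and 7, Gja5 differed by -2.32 and -2.11, Dll4 by -0.95 and -1.98, Nos3 by -0.80 and -1.5, Notch4 by -1.21 and -0.89, Vcam1 by 1.43 and 1.94, and Lyl1 by 1.16 and 1.70. Their signs follow from groups that do not overlap. The median of the 39 genes was -0.69 on slide 6 and -0.08 on slide 7. On every slide NNK lay at position 2 and LPS/NNK at position 4, so position and group cannot be told apart. With slide as a fixed effect, Flt4, Ednrb and Aplnr were no longer called. The count of 9 fell to 5 without NNK array 2 and to 5 without NNK array 3, and under normexp background correction Gja5, Vcam1 and Lyl1 stayed called.

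Promoter sequences from RefSeq (GRCm38.p6) were available for 25 of the 40 genes (30 entries), and those of the 3 arterial genes that fell are shown with those of Tek and Ackr1, 2 genes called against PBS in every treated group. Each line gives the 250 bases before the annotated start on the gene's strand, with matches to CAGGAA, a form of the core bound by ETS factors such as Erg and Fli1, and to TGGGAA, the core bound by RBPJ, the DNA-binding partner of Notch, in capitals on either strand. The windows are chr3:97032152-97032401 (plus strand) for Gja5, chr2:119325534-119325783 (plus) for Dll4, chr17:34564045-34564294 (plus) for Notch4, chr4:94739039-94739288 (plus) for Tek and chr1:173333504-173333753 (minus) for Ackr1.
Gja5: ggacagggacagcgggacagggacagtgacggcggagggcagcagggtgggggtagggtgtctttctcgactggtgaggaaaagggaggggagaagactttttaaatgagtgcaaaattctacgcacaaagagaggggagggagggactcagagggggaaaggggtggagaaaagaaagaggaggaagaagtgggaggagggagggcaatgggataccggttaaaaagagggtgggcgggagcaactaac
Dll4: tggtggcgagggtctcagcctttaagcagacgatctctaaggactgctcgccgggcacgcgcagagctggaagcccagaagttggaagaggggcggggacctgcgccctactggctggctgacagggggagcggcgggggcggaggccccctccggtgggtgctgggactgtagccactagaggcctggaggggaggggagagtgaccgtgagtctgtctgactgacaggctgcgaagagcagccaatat
Notch4: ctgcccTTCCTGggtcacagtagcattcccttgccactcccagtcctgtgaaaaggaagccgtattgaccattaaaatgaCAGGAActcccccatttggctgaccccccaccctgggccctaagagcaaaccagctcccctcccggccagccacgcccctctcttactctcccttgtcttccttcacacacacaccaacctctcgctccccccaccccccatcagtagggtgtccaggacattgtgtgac
Tek: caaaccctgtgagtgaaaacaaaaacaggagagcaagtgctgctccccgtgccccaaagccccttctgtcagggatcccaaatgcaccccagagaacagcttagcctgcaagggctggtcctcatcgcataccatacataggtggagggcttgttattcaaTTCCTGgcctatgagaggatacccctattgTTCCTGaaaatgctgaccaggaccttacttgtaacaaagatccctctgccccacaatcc
Ackr1: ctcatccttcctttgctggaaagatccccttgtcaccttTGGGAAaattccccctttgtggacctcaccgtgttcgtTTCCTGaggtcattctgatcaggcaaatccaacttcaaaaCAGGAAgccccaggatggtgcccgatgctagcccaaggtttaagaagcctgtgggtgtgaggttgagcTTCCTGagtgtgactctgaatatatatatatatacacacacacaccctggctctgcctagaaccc
The Gja5 and Dll4 windows hold neither motif, that of Notch4 holds 2 matches to CAGGAA, that of Tek 2, and that of Ackr1 3, along with 1 match to TGGGAA. The motif CAGGAA occurs in 15 of the 30 entries of the endothelial genes (50%) and in 25.7% of all 32851 promoter windows of this length. TGGGAA occurs in 9 of 30 (30%) and in 21.6% of all. These are matches of letters, with no measurement of binding. The levels of the 2 ETS factors are in the data: Fli1 was called in no comparison, and Erg is described with the PBS comparisons.

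LPS without and with the carcinogen was next set side by side. LPS against NNK, the comparison of single agents, called 2 of the 39 genes higher and 0 lower, or 5.13%, where 6.22% of all items were called (2.73% higher and 3.49% lower). They were Vcam1, given above, and Ackr1, and arrays did not overlap for 8 of the 39 genes beside 24.5% of all items. Ackr1, the atypical chemokine receptor of venules and red blood cells, measured -0.69, -0.71 and -0.82 in LPS and -2.11, -1.95 and -3.08 in NNK. The 3 LPS arrays were tight and well above the NNK arrays (log2 change 1.64, SE 0.35, adjusted p = 0.0131). Neither gene passed without LPS array 1, which left 0 calls, and Ackr1 did not pass without NNK array 5, which left 1. Of 12 leukocyte markers 2 rose and 0 fell in the same comparison, and of 4 erythroid genes 0 were called.

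LPS/NNK and LPS differ by the carcinogen and also by array position. Their comparison called 1 gene of the 39 higher (2.56%) and 0 lower, where 4.11% of all items were called (2.85% higher and 1.26% lower). Arrays did not overlap for 6 of the 39, beside 20.9% of all items. This was Bmx, a cytoplasmic tyrosine kinase of arterial endothelium, and it was not well above background on any array of either group, so no fold is given; it was tested only because it passed the filter on the PBS arrays. Without LPS/NNK array 2 the count was 7. Gja5 (log2 change -1.32, limma adjusted p = 0.0515), Nos3 (-1.16, adjusted p = 0.0554) and Erg (1.25, adjusted p = 0.073) lay just short of the threshold, each without overlap. The second Gja5 probe differed by -0.21.

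Against PBS, 14 of the 39 genes were called in LPS (6 higher, 8 lower; 35.9%), where 56% of all items were (26.1% higher and 30% lower). In NNK 21 were called (15 higher, 6 lower; 53.8%), where 51.5% of all items were (27.8% higher and 23.7% lower). In LPS/NNK 14 were called (8 higher, 6 lower; 35.9%), where 55.1% of all items were (27.9% higher and 27.1% lower). Arrays did not overlap with PBS for 17 of the 39 genes in LPS, 24 in NNK and 16 in LPS/NNK, beside 62.5%, 67.6% and 62% of all items. Bmx and Sele passed the filter only through PBS, where they are high, and count among the lower genes in LPS and NNK, and Bmx in LPS/NNK; without them 6, 4 and 5 were lower. The median change of the 39 genes was 0.04 in LPS, 0.44 in NNK and -0.06 in LPS/NNK, beside -0.06, 0.04 and -0.04 over all items. These splits depend on how arrays are scaled to each other. Quantile normalization gave 4 higher and 16 lower in LPS, 9 and 9 in NNK, and 4 and 18 in LPS/NNK, with medians of -0.54, -0.28 and -0.56. Cyclic loess gave 4 and 17, 7 and 9, and 4 and 18, and normexp gave 4 and 5, 5 and 5, and 4 and 5. How all items split under these settings is not given here, so the counts are not read as particular to endothelial genes. The 3 comparisons share the PBS arrays. Centring on the median item moved the median of all items in LPS against PBS from -0.06 to 0.09, and left the splits at 7 and 8, 15 and 6, and 8 and 6.

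**Figure D3:**
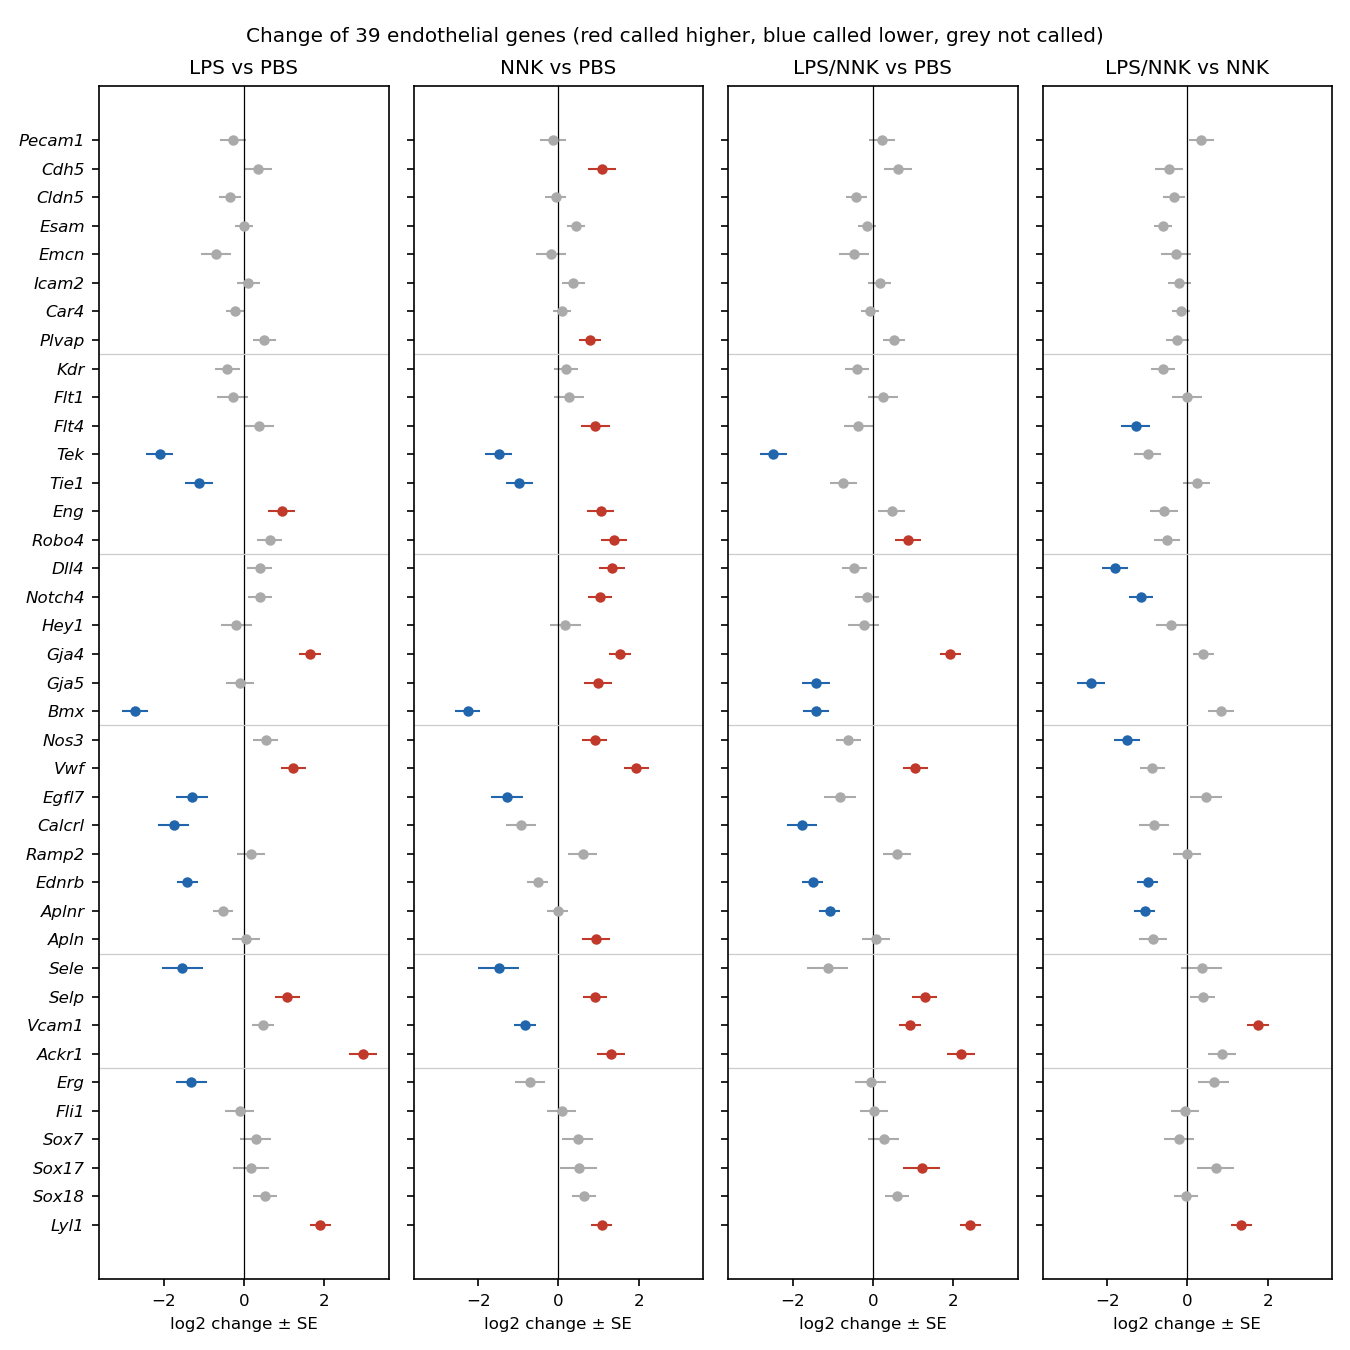
Log2 change (x axis, point) with its standard error (line) of the 39 endothelial genes, in rows separated by role, for 3 comparisons with PBS and for LPS/NNK against NNK; red genes were called higher, blue lower, grey not called. The NNK column has 15 red and 6 blue genes and the LPS/NNK against NNK column 2 red and 7 blue, and several red calls in the PBS columns, such as Vwf in LPS (1.23), are lost under other scalings.

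Under quantile, cyclic loess and median centring together, call and direction held for 11 of 14 genes in LPS, 13 of 21 in NNK and 10 of 14 in LPS/NNK. Lost were Vwf, Eng and Erg in LPS, and Vwf, Sox17, Robo4 and Vcam1 in LPS/NNK. In NNK those lost were Cdh5, Gja5, Eng, Robo4, Plvap, Apln, Notch4 and Lyl1. With normexp required as well, 8 of 14, 8 of 21 and 9 of 14 held. Without PBS arrays 1 and 2, the calls that held numbered 8 of 14, 5 of 21 and 10 of 14. They were Tek, Gja4, Calcrl, Ednrb, Selp, Ackr1, Bmx and Lyl1 in LPS, and Vwf, Gja4, Robo4, Vcam1 and Bmx in NNK. In LPS/NNK they were Tek, Gja4, Gja5, Calcrl, Ednrb, Selp, Ackr1, Aplnr, Bmx and Lyl1. The held calls of Bmx, and those of Sele under scaling, are no support, since both genes passed the filter only through PBS. The count in NNK was 12 without PBS array 1, 11 without NNK array 2 and 11 without NNK array 3.

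Among growth factor receptors, Tek was the gene that stood furthest from PBS. Tek, also called Tie2, keeps the endothelium quiescent when bound by angiopoietin 1. It measured 2.84, 3.32 and 3.1 in PBS, 1.67, 0.90 and 0.41 in LPS, 1.78, 2.0 and 1.03 in NNK and 0.85, 0.42 and 0.56 in LPS/NNK. All 9 treated arrays were below all PBS arrays. It was lower by 2.10 in LPS (log2 change -2.10, SE 0.33, adjusted p = 0.000265), by 1.49 in NNK (-1.49, adjusted p = 0.00295) and by 2.48 in LPS/NNK (-2.48, adjusted p = 6.62e-05). Its relative Tie1 measured 1.55, 1.84 and 1.71 in PBS and 0.57, 0.81 and 0.36 in LPS, a fall of 1.12 (adjusted p = 0.0136), and it fell by 0.97 in NNK (adjusted p = 0.0297). In LPS/NNK Tie1 ranged from 0.31 to 1.83 and did not pass. Eng, the endothelial TGF-beta co-receptor, was called higher in LPS (0.94) and NNK (1.05), and both calls were lost under quantile normalization.

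Calcrl, the receptor that forms the adrenomedullin receptor with Ramp2, fell. It measured 5.94, 6.26 and 6.28 in PBS, 3.76, 4.61 and 4.86 in LPS and 3.61, 4.44 and 5.15 in LPS/NNK. None of these treated arrays reached PBS (log2 change -1.75, adjusted p = 0.00192 in LPS; -1.76, adjusted p = 0.0017 in LPS/NNK). Its partner Ramp2 was not called. Ednrb measured 0.68, 1.33 and 1.17 in PBS and -0.30, -0.43 and -0.33 in LPS. It fell by 1.41 in LPS (adjusted p = 0.000722) and by 1.5 in LPS/NNK (adjusted p = 0.000407), and in NNK it differed by -0.51 and did not pass. Both genes were called lower in the 2 groups that received LPS under every alternative tried. A second Ednrb probe differed less, by -0.46 in LPS and -0.84 in LPS/NNK, and was not tested alone. A second Calcrl probe differed by -1.79 and -2.36. Aplnr fell in LPS/NNK (log2 change -1.08, adjusted p = 0.00345) and differed by -0.52 in LPS (adjusted p = 0.101).

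Egfl7, a secreted protein of endothelium, measured 5.86, 5.91 and 5.76 in PBS and 4.73, 4.50 and 4.48 in NNK, a fall of 1.27 (adjusted p = 0.0172), and fell by 1.30 in LPS, where LPS array 1 (5.57) was near PBS. Vwf, the clotting factor stored in endothelium and platelets, measured 4.95, 4.92 and 5.16 in PBS and 7.27, 7.12 and 6.47 in NNK. The groups were far apart (log2 change 1.94, SE 0.31, adjusted p = 0.000446), and a second probe differed by 2.01. In NNK 6 of 9 platelet genes were also called higher than in PBS and none lower, beside 27.8% of all items called higher. Their array means were -0.18 to 0.10 in PBS and 0.54 to 1.15 in NNK. Vwf was called higher in LPS (1.23) and LPS/NNK (1.06) too, and both calls were lost under other scalings. Of the 9 platelet genes, 1 was higher and 1 lower in LPS, and 0 were higher and 3 lower in LPS/NNK. The part of platelets in the Vwf difference was not tested.

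Gja4, which encodes connexin 37 of arterial endothelium, was higher in all treated groups. It measured 2.86, 3.59 and 2.70 in PBS, 4.72, 4.79 and 4.59 in LPS, 4.59, 4.36 and 4.80 in NNK and 4.61, 5.26 and 5.09 in LPS/NNK. Every treated array was above every PBS array, by 1.65 on average in LPS (adjusted p = 0.000355), 1.53 in NNK (adjusted p = 0.000813) and 1.93 in LPS/NNK (adjusted p = 9.36e-05). Bmx was well above background on PBS arrays only, at -3.90, -3.36 and -3.39. On the main scale its PBS level was at least 1.73-fold that of LPS, 2.58-fold that of NNK and 2.17-fold that of LPS/NNK. No p is given, and these folds are no support for a fall, since the gene passed the filter only through PBS. These bounds set the PBS mean against, on each treated array, the higher of the probe's own value and the lowest signal among probes well above background. Under normexp the sign of Bmx turned in all 3 (0.12, 1.07 and 0.79).

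Of the 4 leukocyte adhesion and chemokine binding genes, 2 were higher and 1 lower in LPS, 2 higher and 2 lower in NNK, and 3 higher in LPS/NNK, with Sele among the lower genes. All items called higher were 26.1%, 27.8% and 27.9% in these groups, and those called lower 30%, 23.7% and 27.1%. Ackr1 measured -3.08, -4.41 and -3.61 in PBS, -0.69, -0.71 and -0.82 in LPS, -2.11, -1.95 and -3.08 in NNK and -1.46, -1.39 and -1.66 in LPS/NNK. It was 2.96 higher in LPS (SE 0.35, adjusted p = 3.48e-05), 7.78-fold, and 2.20 higher in LPS/NNK (SE 0.35, adjusted p = 0.000194). In NNK it was 1.32 higher (adjusted p = 0.00694), and the order of group means was LPS, LPS/NNK, NNK and PBS. Erythroid genes were higher than PBS for 3 of 4 in NNK (median 1.48), 1 of 4 in LPS and 1 of 4 in LPS/NNK, and their part in the Ackr1 differences was not tested. LPS/NNK did not differ beyond the threshold from NNK (0.87, adjusted p = 0.098) or from LPS (-0.76, adjusted p = 0.188).

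Selp, the P-selectin of endothelium and platelets, was higher in LPS (1.08, adjusted p = 0.00993), NNK (0.91, adjusted p = 0.0267) and LPS/NNK (1.29, adjusted p = 0.00354). Its PBS arrays lay from -3.24 to -2.22 and its treated arrays from -2.11 to -1.02. The LPS call was lost under normexp. A dimmer second Selp probe differed by 1.52, 1.24 and 0.57 in the same order, and was above background on only 2 LPS/NNK arrays. Sele, the E-selectin of activated endothelium, was well above background on the 3 PBS arrays (-3.70, -5.70 and -5.08) and on none of the treated arrays. It too passed the filter only through PBS, so no p is given. On the main scale its PBS level was at least 1.06-fold that of NNK, which is no support for a fall. No fold can be given for LPS or LPS/NNK. Under normexp the sign turned in LPS (0.35) and NNK (1.32). Vcam1 was 0.92 higher in LPS/NNK than in PBS (adjusted p = 0.0121) on its brighter probe and 0.86 lower (-0.86) on the other.

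**Figure D4:**
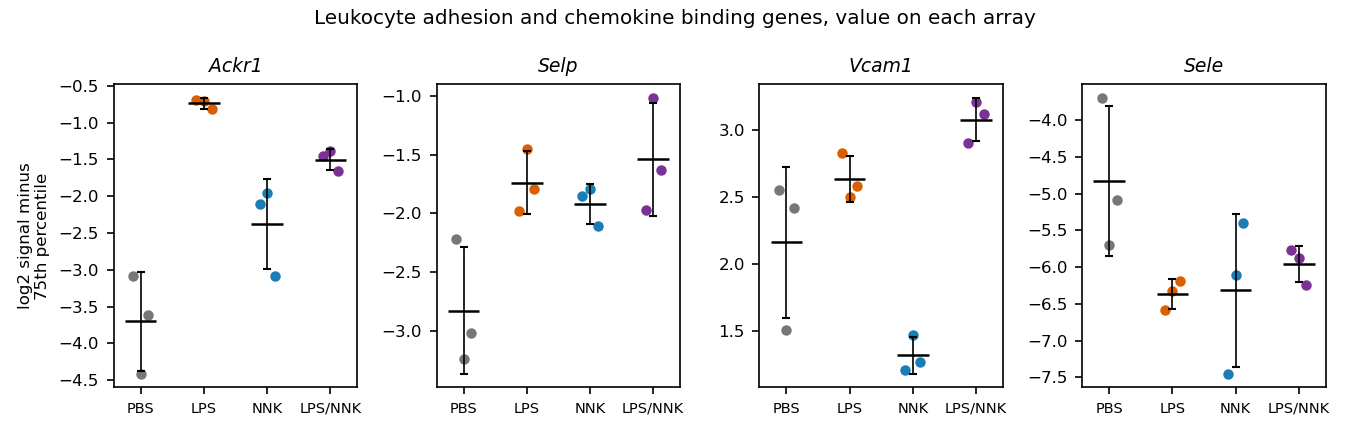
Level of the 4 leukocyte adhesion and chemokine binding genes (y axis, log2 signal minus the array's 75th percentile) on each array of the 4 groups, with bars for the mean and SD of 3 arrays. Ackr1 is between -0.82 and -0.69 on LPS arrays and between -4.41 and -3.08 on PBS arrays; Sele is well above background on PBS arrays only.

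Of the transcription factors, Lyl1 was the gene with the largest change. It measured 2.33, 2.38 and 2.39 in PBS, 3.85, 4.63 and 4.32 in LPS, and the values given above in NNK and LPS/NNK. It was 1.90 higher in LPS (adjusted p = 0.000107) and 2.42 higher in LPS/NNK (adjusted p = 1.55e-05), both under every alternative tried, and 1.08 higher in NNK (adjusted p = 0.00453), which did not pass under cyclic loess (0.44), under normexp (0.54) or without PBS arrays 1 and 2 (1.06). Of 12 leukocyte markers, 7 were higher and 1 lower than PBS in LPS, 8 higher and 2 lower in LPS/NNK, and 4 higher and 4 lower in NNK. All items called higher were 26.1%, 27.9% and 27.8% in these groups, and those called lower 30%, 27.1% and 23.7%. The part of leukocytes in the Lyl1 difference was not tested. Erg, an ETS factor that maintains endothelial identity, measured -1.93, -2.17 and -2.97 in PBS and -3.46, -4.37 and -3.16 in LPS. It fell by 1.31 (adjusted p = 0.0102), was not well above background on LPS array 5, and lost its call without that array (-0.96) and without PBS arrays 1 and 2 (-0.69). Sox17, an arterial SOX factor, was 1.21 higher in LPS/NNK (adjusted p = 0.0345), and its 3 probes ranged from -0.57 to 1.21.

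NNK array 2 shared slide 5 with PBS array 3, and LPS/NNK array 6 shared slide 8 with PBS array 1. On slide 5 Tek differed by -1.32, Vwf by 2.11 and Gja4 by 1.89. On slide 8 Tek differed by -2.28, Gja4 by 2.23, Gja5 by -1.44 and Lyl1 by 2.37. For genes whose groups do not overlap, these signs too are fixed. The median of the 39 genes was 0.45 on slide 5 and 0.04 on slide 8. PBS arrays always lay at position 1, so position cannot be told apart from group, and LPS arrays shared no slide with PBS.

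The interaction asks whether LPS changed a gene differently in mice given NNK and in mice not given it. It was called for 14 of the 39 genes (5 higher, 9 lower; 35.9%), where 38.7% of all items were called (20.1% higher and 18.6% lower). Gja5 differed by -0.09 for LPS against PBS and by -2.40 for LPS/NNK against NNK, an interaction of -2.30 (SE 0.50, adjusted p = 0.00463). Its second probe differed by 0.025 and -0.66. Dll4 differed by 0.39 and -1.80 (interaction -2.19, adjusted p = 0.00373), Nos3 by 0.54 and -1.51 (-2.06, adjusted p = 0.00482) and Notch4 by 0.40 and -1.16 (-1.56, adjusted p = 0.0135). Vcam1 differed by 0.48 and 1.76 (1.28, adjusted p = 0.0206), and Ackr1 by 2.96 and 0.87 (-2.09, adjusted p = 0.00675). Lyl1, Tek, Calcrl and Ednrb showed no called interaction. The count was 9 without PBS array 1. Without PBS arrays 1 and 2 it was 6 genes, with Dll4, Nos3, Vcam1, Ackr1, Gja4 and Bmx held and Gja5 and Notch4 not. The Bmx call is no support, since the gene passed the filter only through PBS. Quantile normalization gave 8 higher and 6 lower, cyclic loess 7 and 6, centring on the median 4 and 10, and normexp 0.

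**Figure D5:**
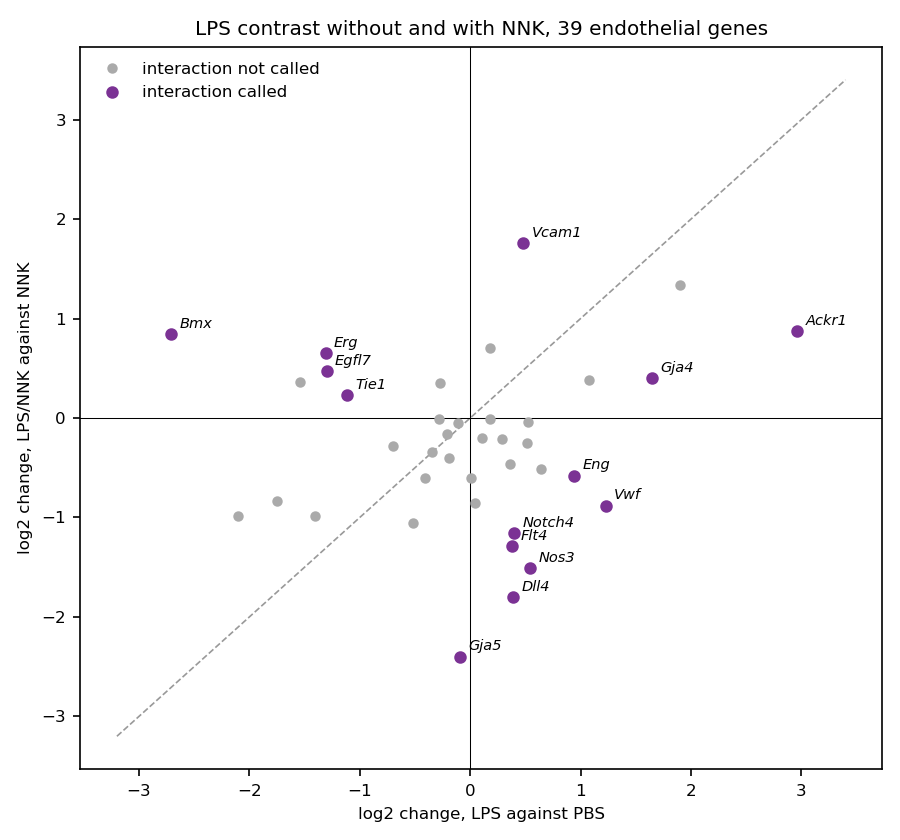
Log2 change of LPS against PBS (x axis) and of LPS/NNK against NNK (y axis) for the 39 endothelial genes; purple genes had a called interaction, grey ones did not, and the dashed line marks equal changes. Gja5, Dll4, Nos3, Flt4 and Notch4 lie below the line at -2.40 to -1.16 on the y axis and -0.09 to 0.54 on the x axis.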

How the data were processed

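Lung RNA from 12 mice was measured on 1-colour Agilent arrays, 3 per group. The deposited scanner files hold each spot's processed signal, an intensity that Agilent Feature Extraction (10.7 per the labels, 10.7.3.1 per the file headers) made by subtracting background within each array, per the file headers. The deposited matrix of log2 values was made with Partek (no version given), per the submitters' processing notes; 99.92% of its values lie within 0.01 of those computed here, with direction and scale shared. Depth does not apply to arrays, whose number limits the precision.

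Control spots were removed, as were 39 to 99 outlier spots per array, and the spots of each probe were averaged. Names came from RefSeq accessions, and the filter kept the 28334 probes that cleared background throughout 1 or more groups. The brightest kept probe stood for its gene. A single fit in limma 3.58.1 held all 12 arrays (R 4.3.3, the data.table package, version 1.17.8; lmFit and eBayes, 8 residual and 5.49 prior degrees of freedom), with Benjamini-Hochberg adjustment over 21856 items, 2-sided. An exact test of 3 against 3 arrays cannot go below p = 0.1, so none was used. The fit was tested on simulated data, with no outcome given here, and no result above rests on that test. Tables and figures used Python 3.11.15, pandas 2.3.3 and matplotlib 3.10.9.

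The genes, their roles and the marker lists were chosen with earlier results of these data known. All 40 genes are accounted for; those given in full are the called ones with the largest change each way and every gene called between treated groups. The alternatives were normexp (on median signals and background, offset 50, since no mean signal column is in the files), quantile and cyclic loess normalization, centring on the median item (added after the data were seen), other filters and probe rules, an intensity trend, only the groups compared, slide as a block (consensus correlation 0.241), the replicate number as a block, and arrays left out.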

Additional observations from a re-analysis of the deposited data

Results flagged for a closer look

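The interaction term of the limma fit was called for 14 of the 39 endothelial genes (35.9%), beside 38.7% of all items. It asks whether the LPS difference was the same without and with NNK, on the log2 scale. The interaction was negative for Gja5 (-2.30), Dll4 (-2.19), Vwf (-2.12), Ackr1 (-2.09), Nos3 (-2.06), Flt4 (-1.66), Notch4 (-1.56), Eng (-1.52) and Gja4 (-1.25). It was positive for Bmx (3.54), Erg (1.96), Egfl7 (1.77), Tie1 (1.35) and Vcam1 (1.28). The Bmx value rests on 3 groups in which the probe was not well above background, and Erg was not above background on LPS array 5. All 14 contain the PBS arrays. Without PBS arrays 1 and 2, 6 held, and 8 held with each array left out in turn. Bmx is in both counts although it passed the filter only through PBS. Under normexp 0 held.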

How the results depend on the processing

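Counts of 7 values run in this order: each treated group against PBS (LPS, NNK, LPS/NNK), LPS/NNK against NNK and then against LPS, LPS against NNK, and the interaction. Shares of all items called under the alternatives are not given here or above. Normexp background correction gave 9, 10, 9, 3, 0, 0 and 0 called genes, and the cause was not tested. For LPS/NNK against PBS, quantile normalization and cyclic loess each gave 22. Slide as a fixed effect gave 13 for NNK against PBS. Leaving out PBS arrays 1 and 2 gave 8, 5 and, for the interaction, 6. The single call of LPS/NNK against LPS became 2 with cyclic loess, with only probes above background on all 12 arrays, with an intensity trend and with centring on the median, and 0 with no filter, with only the groups compared and with slide as a random block. Leaving out 1 array at a time gave 11 to 18 for NNK against PBS (12 without PBS 1, 11 without NNK 2 and 11 without NNK 3), 5 to 11 for LPS/NNK against NNK, 0 to 7 for LPS/NNK against LPS, 0 to 3 for LPS against NNK and 9 to 15 for the interaction (9 without PBS 1); LPS against PBS gave 11 to 16 and LPS/NNK against PBS 12 to 20. A lone array left in a group was assumed to vary like the other groups.

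The replicate block, with the label number as block, gave 14, 18, 12, 11, 2, 2 and 14 calls; same-numbered arrays correlated at -0.147 to 0.408, so the numbers were not taken as pairs.

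Signs turned for some genes. With normexp these were Sele in LPS (0.35) and NNK (1.32) and Bmx in LPS (0.12), NNK (1.07), LPS/NNK (0.79) and the interaction (-0.40). With quantile normalization they were Esam (-0.54), Ramp2 (-0.91) and Icam2 (-0.70) in LPS and Robo4 (-0.021), Ramp2 (-0.75) and Icam2 (-0.86) in LPS/NNK. With cyclic loess they were Esam (-0.53), Ramp2 (-1.02) and Icam2 (-0.85) in LPS, Plvap (-0.091) and Icam2 (-0.60) in NNK, and Flt1 (-0.80), Vwf (-0.21), Robo4 (-0.21), Ramp2 (-0.88) and Icam2 (-1.0) in LPS/NNK. Genes near background are bounded only by their own arrays.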
